A study of Homo sapiens with 12 samples.

Results

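The baseline transcriptome of cells that received a control hairpin was described from the 3 libraries of that group, out of 12 libraries in 4 groups. The group was chosen by its label alone. The cells were labelled TE-1, a human oesophageal cancer line, and were grown in DMEM with 10% FBS and harvested 48 h after transfection of a control interference vector, the control for a hairpin against the interferon-induced gene IFI6. All 3 libraries share that transfection, no untransfected culture entered these values, and whether they came from separate cultures is not stated in the labels, so the spread between them may be technical. The other 9 libraries, which carried an overexpression vector, its control or the IFI6 hairpin, were not used, and no groups were compared.

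TE-1 is generally described as a squamous carcinoma line. Squamous epithelium of the oesophagus is built from basal cells that depend on the transcription factors TP63 and SOX2 and carry the keratin pair KRT5 and KRT14, and from suprabasal cells that switch to other keratins, small proline-rich proteins and desmosomal cadherins. Simple epithelia instead carry the pair KRT8 and KRT18 and usually the adhesion molecule EPCAM. Vimentin (VIM) is the intermediate filament of mesenchymal cells and of many carcinoma lines in culture.

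Levels were deposited as FPKM, the number of sequenced fragments scaled by transcript length and by library size, for 19771 protein-coding genes among 63811 annotated genes. FPKM is scaled by length, so levels of different genes can be set side by side. Means below are over the 3 libraries, with the SD (n = 3). A mean under 0.1 FPKM was classed as absent, 0.1 to under 1 as low, 1 to under 20 as intermediate and 20 or more as high. In these terms 7004 protein-coding genes (35.4%) were absent, 1789 low, 7957 intermediate and 3021 high (15.3%), and 10978 (55.5%) reached 1 FPKM. Of the absent genes, 4953 were listed at 0 in all 3 libraries. Counts for the gene lists below are to be read against these shares. Summed protein-coding FPKM lay between 332753 and 334107, and over all annotated genes between 494835 and 512784. FPKM is already scaled by library size, so like sums do not show like signal or depth. Across genes, which are not independent replicates, the libraries correlated at 0.991 to 0.992 on the log2(FPKM + 1) scale. The read depth is unknown.

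**Figure D1:**
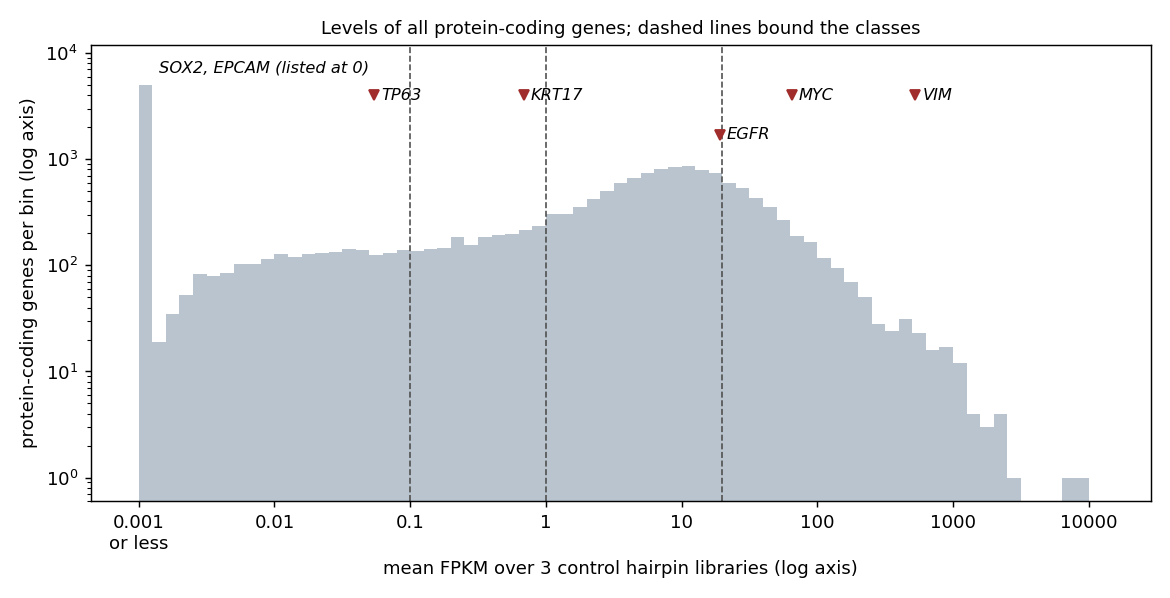
Mean FPKM of all 19771 protein-coding genes over the 3 control hairpin libraries on a log axis, with the number of genes per bin on a log axis. Dashed lines at 0.1, 1 and 20 FPKM bound the classes; VIM and MYC lie in the high class, EGFR just under 20 FPKM, KRT17 in the low class, TP63 in the absent class, and SOX2 and EPCAM are listed at 0.

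The 7 marker genes spread over the whole range of levels. VIM (chromosome 10) was listed at 660.4, 471 and 456 FPKM and averaged 529 ± 114 FPKM. MYC, a transcription factor that drives growth, was at 117, 40.5 and 36.3 FPKM (mean 64.7 ± 45.7 FPKM), so library 1 was far above the other 2. Most of that excess lay in a transcript named MYC-211, which was listed at 69.7, 0.4001 and 0.357 FPKM. EGFR, the epidermal growth factor receptor, was at 17.6, 22.2 and 17.4 FPKM (mean 19.1 ± 2.69 FPKM), around the bound of the high class, with library 2 alone above it. KRT17, a keratin of basal and stressed squamous cells, was at 0.589, 0.698 and 0.7899 FPKM. TP63 was at 0.0467, 0.0457 and 0.0706 FPKM, and 12 of its 15 listed transcripts were at 0 in every library. SOX2 and EPCAM were listed at 0 in all 3 libraries. The order VIM, MYC, EGFR, KRT17, TP63 held in 3 of 3 libraries with no overlap of ranges between neighbours. SOX2 and EPCAM could not be ordered.

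The labels give the line and its origin in oesophageal cancer but no histology. A short list of 7 markers taken to define squamous cells was absent throughout, and EPCAM and the cadherin CDH1 were at or near 0. These levels are no test of the label, and no conclusion about it is drawn from them. Members and lists were chosen with earlier results of these data known, and KRT17, outside the 7, was low rather than absent. Other members of the squamous and basal lists were high, namely SFN, PITX1, ELF3 and TFAP2A. The identity of the line was not tested here, so each lineage value holds for the cells as labelled. Of the 7 squamous markers, KRT5, KRT14, KRT6A, DSG3 and CALML3 were listed at 0, DSC3 averaged 0.00295 FPKM and TP63 0.0543 FPKM. Among 18 regulators of squamous and basal cells, 10 were absent, against 35.4% of all protein-coding genes. The absent ones included TP73, GRHL2, GRHL3, EHF, OVOL1, BNC1 and ZNF750 beside TP63 and SOX2. Of 28 genes of squamous differentiation, 20 were absent, 19 of them listed at 0, among them IVL, LOR, FLG, SPRR1A, SPRR3, CRNN, the transglutaminase TGM3, DSG1 and SERPINB3. The remaining members included 5 at 1 FPKM or more (17.9% of the 28, against 55.5% of all protein-coding genes). Of these only SFN, the cell cycle checkpoint protein also named stratifin, was high, at 55.7, 66.96 and 62.3 FPKM. The plaque proteins PPL and EVPL, which are cross-linked into the cornified envelope, were intermediate at 4.07 ± 0.604 FPKM and 1.497 ± 0.3697 FPKM. So were the membrane protein gene EMP1 (3.55 ± 1.95 FPKM) and the desmosomal cadherin DSC2 (3.18 ± 0.548 FPKM). Since RNA was taken from whole cultures, fewer cells of a type and less RNA per cell cannot be told apart in any of these values.

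Of the same 18 regulators 7 reached 1 FPKM (38.9%, against 55.5% of all protein-coding genes) and 3 were high (16.7%, against 15.3%). PITX1, a homeodomain factor, was at 65.1, 66.5 and 58.04 FPKM. ELF3, an epithelium-specific ETS factor, was at 59.4, 57.5 and 60.3 FPKM. TFAP2A was at 20.8, 18.3 and 22.3 FPKM, with library 2 under 20 FPKM. KLF4, KLF5 and TFAP2C were intermediate at 16.6 ± 1.04 FPKM, 12.3 ± 0.919 FPKM and 10.9 ± 0.318 FPKM, and FOXE1 averaged 2.21 ± 0.0746 FPKM.

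**Figure D2:**
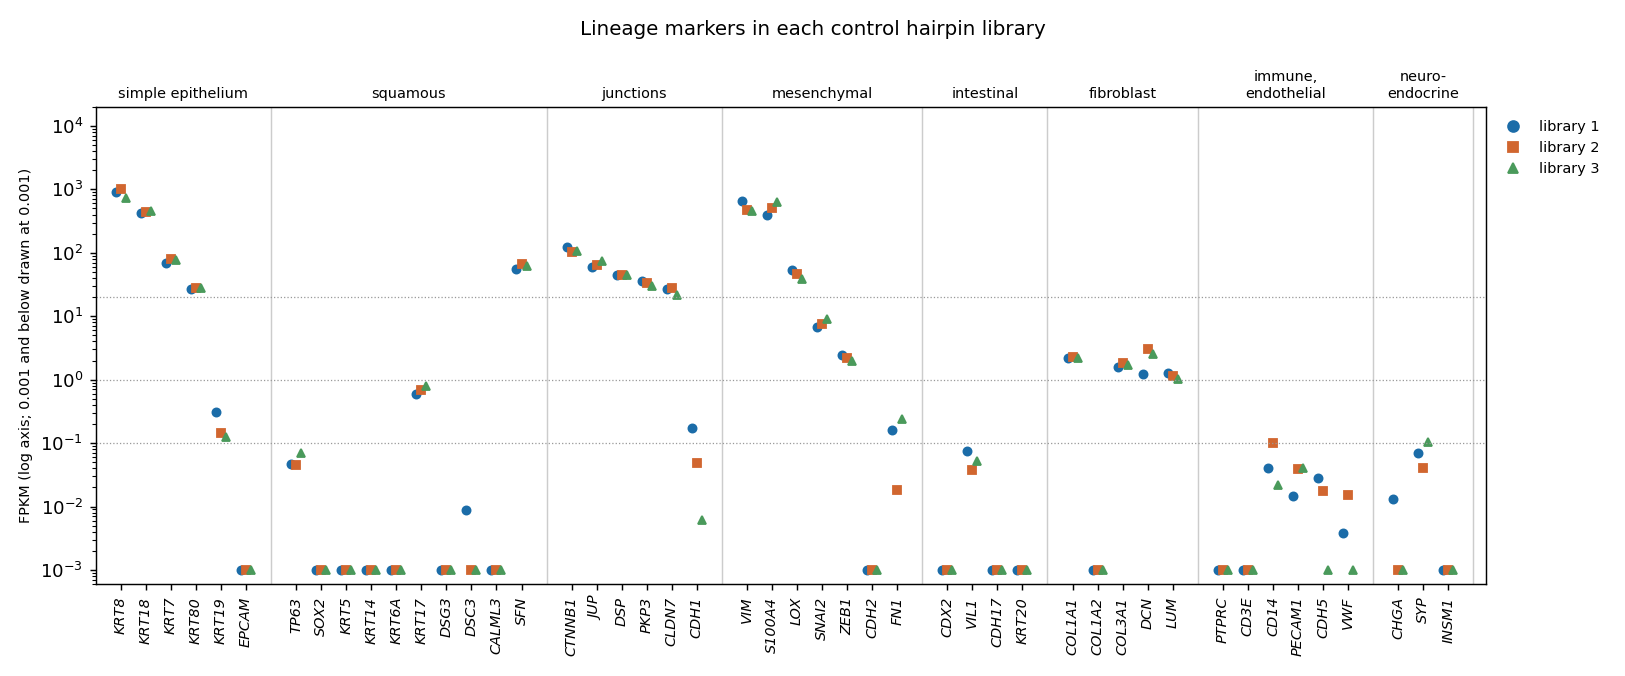
FPKM of lineage markers in each of the 3 control hairpin libraries (circle, square and triangle) on a log axis, grouped by cell type; dotted lines mark 0.1, 1 and 20 FPKM and values at or under 0.001 are drawn at 0.001. KRT8, KRT18, VIM and S100A4 lie at 394 FPKM or more in every library, while KRT5, KRT14, KRT6A, SOX2 and EPCAM are listed at 0.

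The highest keratins were those of simple epithelium. KRT8 was at 918, 1008 and 725 FPKM (mean 884 ± 144 FPKM). Its partner KRT18 was at 422, 446 and 454 FPKM (mean 441 ± 17.03 FPKM), with the KRT8 level 1.60 to 2.26 times that of KRT18 within a library. KRT7, a keratin of ductal and other simple epithelia, was at 69.95, 80.7 and 77.9 FPKM, and KRT80, a keratin expressed across many epithelia, at 26.5, 27.6 and 27.6 FPKM. These 4 were the only high members of 55 keratin genes (7.27%, against 15.3% of all protein-coding genes). Of the 55, 43 were absent, against 35.4% of all protein-coding genes, and 38 were listed at 0. KRT15, KRT86 and KRT10 were intermediate at 2.11 ± 0.158 FPKM, 1.89 ± 0.105 FPKM and 1.21 ± 0.577 FPKM. KRT19, a further simple-epithelium keratin, was low at 0.194 FPKM, and the oesophageal suprabasal keratins KRT4 and KRT13 were at 0.00998 and 0.208 FPKM. Keratin genes lie in 2 clusters: the 27 on chromosome 12 (52168996 to 52952906) held all 4 high members, including KRT18, the only type I keratin placed there, while none of the 28 on chromosome 17 was high and 2 reached 1 FPKM. A transcript named KRT8-215 was listed at 589.8, 0 and 0 FPKM, so the makeup of the KRT8 value differed between libraries more than its sum.

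Levels also split in the segment of chromosome 1 from 151982915 to 153632242 that runs from S100A10 to S100A1 and contains the epidermal differentiation genes. Of its 64 protein-coding genes 52 were absent, against 35.4% of all protein-coding genes. The 6 high ones were all S100A genes, which encode small calcium-binding proteins. S100A6 was at 1689, 1613 and 1587 FPKM, ranking 10 among all protein-coding genes. S100A4 was at 394, 499 and 639 FPKM and S100A10, the annexin A2 partner, at 167, 177 and 166 FPKM. S100A16 was at 139, 36.4 and 132 FPKM, with library 2 low. The squamous inflammatory members S100A7 and S100A9 were listed at 0 and S100A8 averaged 0.102 FPKM.

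Junction genes were present in part. Of 20 epithelial junction genes 10 reached 1 FPKM (50%, against 55.5% of all protein-coding genes) and 6 were high (30%, against 15.3%). The desmosomal plaque gene DSP was at 45.2, 45.3 and 45.4 FPKM, JUP, which encodes plakoglobin, at 58.6, 63.1 and 74.9 FPKM and PKP3, a plakophilin, at 35.8, 32.9 and 29.8 FPKM. CLDN7, a tight junction claudin, was at 26.5, 27.4 and 21.7 FPKM and was the only high member of 24 claudins. CTNNB1 and CTNNA1, the cytoplasmic catenins of adherens junctions, averaged 111 ± 9.49 FPKM and 115 ± 31.1 FPKM. Their usual cadherin partners were not at a matching level. E-cadherin, CDH1, was at 0.171, 0.0479 and 0.00606 FPKM, P-cadherin, CDH3, averaged 0.00503 FPKM, and N-cadherin, CDH2, was listed at 0. Of 23 genes named CDH and a number, 2 reached 1 FPKM (8.70%, against 55.5% of all protein-coding genes). These were CDH10 at 22.7, 21.99 and 21.2 FPKM and CDH24 at 11.1, 10.4 and 9.94 FPKM. This family and its members were chosen after their values were seen. CLDN1, OCLN, ESRP1 and PKP1 were also absent, whereas the splicing regulator ESRP2 was at 13.5, 14.5 and 7.56 FPKM.

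Matrix adhesion genes reached 1 FPKM in 14 of 19 cases (73.7%, against 55.5% of all protein-coding genes). Of the 19, 7 were high (36.8%, against 15.3%). The integrin chains ITGB5, ITGB1, ITGA5 and ITGA3 averaged 85.05 ± 3.01 FPKM, 74.9 ± 4.44 FPKM, 44.3 ± 1.83 FPKM and 35.3 ± 3.19 FPKM. LAMB3, a chain of laminin-332, was at 43.9, 47.2 and 48.6 FPKM. CD44, the hyaluronan receptor, was at 42.8, 49.9 and 29.1 FPKM. ITGB6, NGFR and PDPN were absent.

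Mesenchymal genes formed a mixed group in which 13 of 19 reached 1 FPKM (68.4%, against 55.5% of all protein-coding genes). Of the 19, 3 were high (15.8%, against 15.3%). Beside VIM and S100A4, the remaining high member was LOX, the collagen cross-linking enzyme lysyl oxidase, at 53.6, 46.9 and 38.8 FPKM. The transcription factors SNAI2, TWIST2, SNAI1, ZEB1 and ZEB2 were intermediate at 7.73 ± 1.103, 5.003 ± 0.577, 3.67 ± 0.9501, 2.19 ± 0.268 and 1.33 ± 0.08104 FPKM. FN1, the gene of fibronectin, was low at 0.1401 FPKM, and CDH2, TWIST1 and MMP2 were listed at 0.

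No gene in the columnar, immune and endothelial, fibroblast or neuroendocrine lists was high, against 15.3% of all protein-coding genes. Of 26 columnar and intestinal genes 22 were absent, against 35.4% of all protein-coding genes. CDX2, CDH17, KRT20, MUC5AC, TFF1, SOX9 and GATA4 were listed at 0, and VIL1 was at 0.0548 FPKM. The only members at 1 FPKM or more were FOXA1 (7.02 ± 1.02 FPKM), AGR2 (6.38 ± 2.14 FPKM) and GATA6 (2.97 ± 0.246 FPKM). Of 14 immune and endothelial genes 11 were absent, against the same 35.4%. PTPRC and CD3E were listed at 0, and CD14, PECAM1, CDH5 and VWF lay between 0.00632 and 0.0547 FPKM. Of 10 fibroblast genes 5 reached 1 FPKM (50%, against 55.5% of all protein-coding genes) and 3 were absent, against 35.4%. COL1A1 was at 2.204, 2.31 and 2.18 FPKM, COL3A1 at 1.56, 1.86 and 1.698 FPKM and DCN at 1.24, 3.02 and 2.58 FPKM, PDGFRB and LUM averaged 1.24 ± 0.182 FPKM and 1.14 ± 0.138 FPKM, and COL1A2, PDGFRA and POSTN were listed at 0. Of 10 neuroendocrine genes 7 were absent, against 35.4% of all protein-coding genes. INSM1 was listed at 0, and the Notch ligand DLL3 was the only one at 1 FPKM or more (3.41 ± 0.774 FPKM). Among genes of wide use, all 12 RNA polymerase II subunits and all 13 EIF3 translation factor subunits reached 1 FPKM, and the reference gene TBP was at 7.27, 7.19 and 7.01 FPKM. Of the 13 genes encoded in mitochondrial DNA, 10 reached 1 FPKM, while MT-ND2 and MT-ATP6 were low at 0.453 and 0.3696 FPKM and MT-ND4L was absent at 0.0825 FPKM. A gene in wide use can thus be listed in the low or absent class in these tables.

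**Figure D3:**
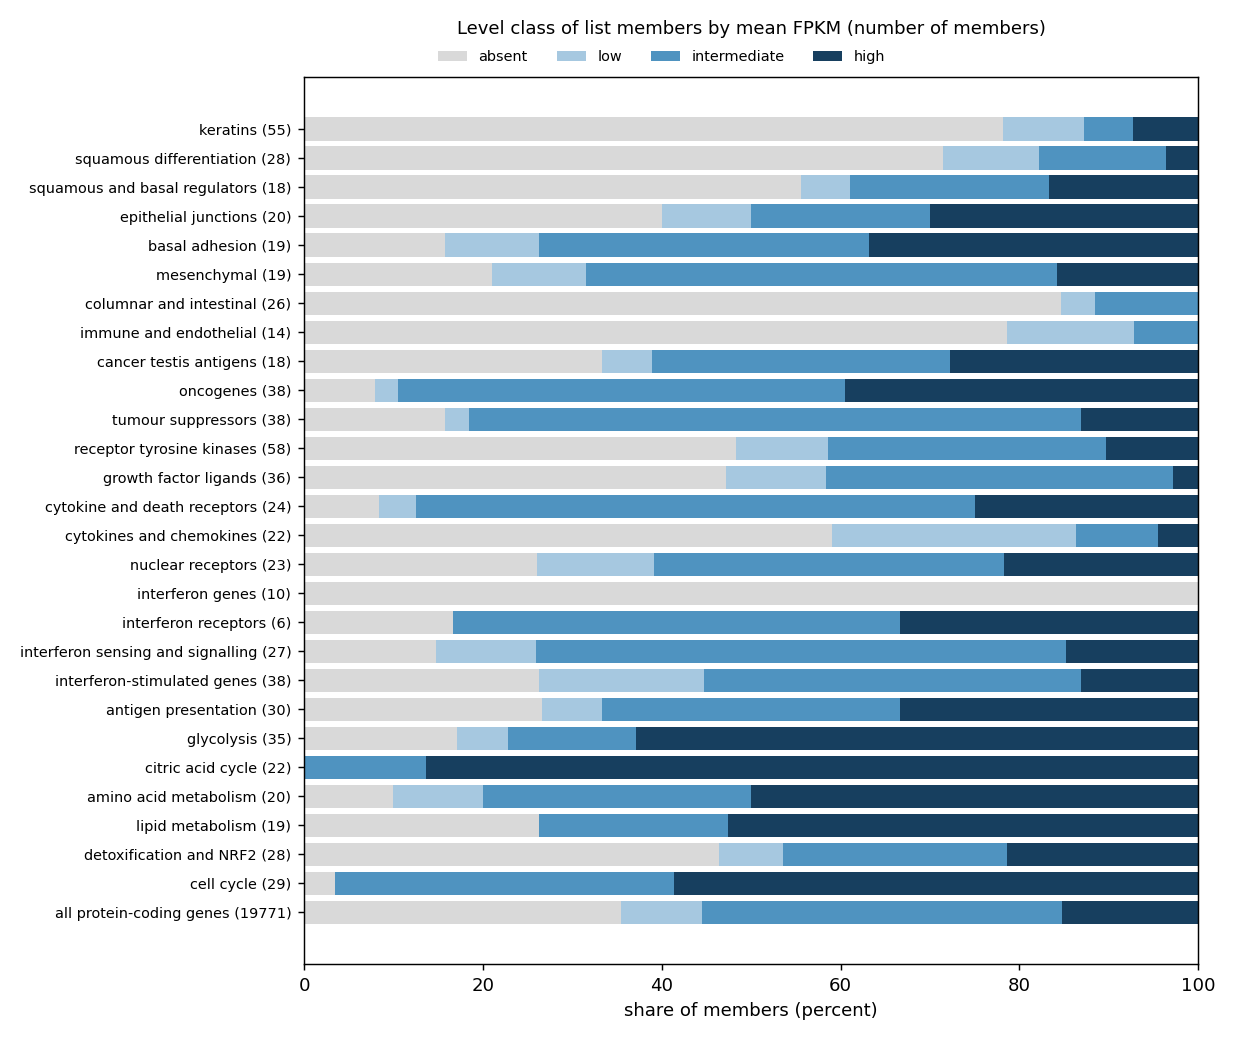
Share of the members of each gene list in the classes absent (under 0.1 FPKM), low, intermediate and high (20 FPKM or more), by mean over the 3 control hairpin libraries; the number of members is in brackets and the last bar gives all 19771 protein-coding genes. Interferon genes are absent in all 10 cases, while all 22 genes of the citric acid cycle list reach 1 FPKM, against 55.5% of all protein-coding genes.

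Of the 20 highest protein-coding genes 10 encoded cytosolic ribosomal proteins, 2 were in the glycolysis list and 8 were in neither. EEF1A1, the elongation factor that brings aminoacyl-tRNA to the ribosome, was at 8757, 8018 and 8546 FPKM, and GAPDH, the glycolytic dehydrogenase, at 6492, 6435 and 6271 FPKM. The ribosomal protein genes RPL13A, RPSA, RPS2 and RPL3 were also among the 20 highest, between 1925 and 2295 FPKM, with the elongation factor EEF2 at 1764 ± 102 FPKM. RPLP0 ranked 3 by mean, but its library 1 value stood apart at 4503, 2056 and 2192 FPKM, and a transcript named RPLP0-206 had a value in library 1 alone, at 3402, 0 and 0 FPKM. The remaining genes of the highest 20 included RPL18, RPS18, RPL10, RPL21, the folding enzyme PPIA, the peroxidase PRDX1, the actin-binding peptide gene TMSB4X, LDHB and the ATP synthase subunit ATP5F1B, all between 1092 and 1406 FPKM. NEMF also ranked among them at 1127 ± 104 FPKM, but 99.9% of that value came from an assembled transcript without a known identifier, and the known transcripts of NEMF summed to 1.28 FPKM. The highest 10 genes held 9.21% to 10.2% of the summed protein-coding FPKM, the highest 100 held 28.8% to 30.04%, and 85 cytosolic ribosomal protein genes held 12.8% to 13.8%.

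Cancer testis antigens, genes normally confined to germ cells, were partly on. Of 18 members 11 reached 1 FPKM (61.1%, against 55.5% of all protein-coding genes) and 5 were high (27.8%, against 15.3%). CTAG2 was at 361, 347 and 334 FPKM, MAGEA6 at 87.7, 96.2 and 95.5 FPKM and MAGEA12 at 88.1, 77.6 and 80.9 FPKM. MAGEA3 and LY6K averaged 42.7 ± 3.301 FPKM and 33.3 ± 4.803 FPKM. The spread of each was small beside its level. Other members of the same families were absent, with MAGEA4, MAGEA10 and MAGEC1 listed at 0. MAGEA3 and MAGEA6, and CTAG2 and CTAG1B, are near-identical copies, so the division of reads between them is uncertain.

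Of 38 oncogenes 34 (89.5%, beside 55.5% of all protein-coding genes) reached 1 FPKM and 15 were high (39.5%, beside 15.3%). Their median of means was 13.9 FPKM, beside 2.14 FPKM over all protein-coding genes. The highest was CDK4, the kinase that starts the cell cycle with D cyclins, at 155, 172 and 169.8 FPKM, followed by JUN, an AP-1 subunit, at 135, 158 and 145 FPKM. MET, the hepatocyte growth factor receptor, was at 71.1, 74.9 and 70.6 FPKM, NRAS at 75.6, 66.04 and 67.4 FPKM and the survival factor MCL1 at 60.7, 72.5 and 70.6 FPKM. The Hippo pathway coactivators WWTR1 and YAP1 averaged 39.1 ± 2.92 FPKM and 37.05 ± 2.52 FPKM. MYCN was listed at 0, and MYCL and TERT, the telomerase catalytic subunit, were intermediate at 2.51 ± 0.196 FPKM and 1.03 ± 0.205 FPKM. CCND1, the D cyclin often raised in oesophageal cancer, averaged 13.2 ± 2.59 FPKM.

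Tumour suppressor genes were mostly intermediate, at 26 of 38, against 40.2% of all protein-coding genes. Of the 38, 5 were high (13.2%, against 15.3%) and 6 were absent (against 35.4%). CDKN2A, which encodes the cell cycle inhibitors p16 and ARF, was the highest at 91.5, 97.8 and 100.4 FPKM (chromosome 9, 21966845 to 21995382). Its transcripts CDKN2A-201 and CDKN2A-214 carried 39.4% and 31.7% of the value. Its neighbour CDKN2B, which encodes a related inhibitor, was at 2.99, 3.21 and 3.45 FPKM, so CDKN2A was 29.1 to 30.6 times as high within a library. FAT1 and NOTCH2 averaged 48.6 ± 5.12 FPKM and 37.8 ± 0.746 FPKM, and RB1 was at 19.1, 16.8 and 15.6 FPKM. NOTCH1 was intermediate at 2.68 ± 0.106 FPKM and NOTCH3 absent at 0.0102 FPKM. FHIT and the squamous factor ZNF750 were listed at 0.

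Cell cycle genes were nearly all on: 28 of 29 reached 1 FPKM (96.6%, against 55.5% of all protein-coding genes). Of the 29, 17 were high (58.6%, against 15.3%). PCNA, the replication clamp, was at 219, 182 and 194 FPKM, CDK1 at 91.5, 83.6 and 87.7 FPKM and CCNB1, its mitotic cyclin, at 79.7, 78.7 and 77.5 FPKM. The inhibitors CDKN1A, CDKN1B and CDKN1C averaged 57.9 ± 2.85 FPKM, 51.8 ± 2.09 FPKM and 30.6 ± 1.71 FPKM. Among the D cyclins, CCND2 was listed at 0 and CCND3 was at 14.9, 37.5 and 37.04 FPKM. CDK2 was at 56.5, 126 and 53.8 FPKM, with library 2 apart from the others.

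Receptor tyrosine kinases, the cell-surface receptors of most growth factors, reached 1 FPKM in 24 of 58 cases (41.4%), and 28 were absent. The shares over all protein-coding genes were 55.5% at 1 FPKM or more and 35.4% absent. The 6 high ones were AXL, DDR1, MET, RYK, FGFR4 and MST1R. AXL, the GAS6 receptor, was at 74.3, 119 and 137 FPKM. A transcript named AXL-OT1 made up much of it in libraries 2 and 3, at 5.27, 63.9 and 82.9 FPKM, so the order of AXL and the next receptors rests partly on that transcript. DDR1, a collagen receptor, was at 76.2, 107 and 84.3 FPKM. FGFR4 and MST1R, the receptor of macrophage-stimulating protein, averaged 29.7 ± 5.69 FPKM and 28.3 ± 3.09 FPKM. MET was 3.38 to 4.05 times as high as EGFR within a library. In the EGFR family ERBB2 averaged 14.5 ± 0.667 FPKM and ERBB3 4.28 ± 0.314 FPKM, and ERBB4 was absent. KIT, RET, ALK, PDGFRA and the vascular receptors FLT1, FLT4 and KDR were listed at 0.

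Few ligands were high. Of 36 growth factor ligands 15 reached 1 FPKM (41.7%, against 55.5% of all protein-coding genes) and 1 was high (2.78%, against 15.3%). The high ligand was PDGFB at 43.3, 45.9 and 43.6 FPKM, while its receptors PDGFRA and PDGFRB were at 0 and 1.24 FPKM. VEGFA, the angiogenic factor, was at 21.2, 21.8 and 15.96 FPKM and WNT5A at 13.8, 13.3 and 12.4 FPKM. Of the EGFR ligands, TGFA, EGF and HBEGF were intermediate at 4 ± 0.3699 FPKM, 1.46 ± 0.198 FPKM and 1.08 ± 0.103 FPKM, AREG was low at 0.191 FPKM, EREG was absent at 0.00242 FPKM and BTC was listed at 0. HGF, the ligand of MET, was listed at 0, and GAS6, the ligand of AXL, was low at 0.174 FPKM.

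Cytokine and death receptors were expressed in 21 of 24 cases (87.5%), whereas 3 of 22 cytokines and chemokines (13.6%) reached 1 FPKM. The share over all protein-coding genes was 55.5%. The highest receptor was TGFBR1, a kinase of the TGF-beta receptor, at 181, 101 and 139 FPKM. The death receptor TNFRSF10B, the TNF receptor TNFRSF1A and the LIF receptor LIFR averaged 42.8 ± 4.22 FPKM, 41.2 ± 2.69 FPKM and 38.2 ± 3.24 FPKM. LIF itself was at 4.93, 5.09 and 4.9 FPKM. IL18, an epithelial alarm cytokine, was the only high ligand of this group, at 27.3, 20.5 and 22.2 FPKM. IL6, TNF, CXCL1, CXCL10 and CSF2 were listed at 0 and CXCL8 averaged 0.1304 FPKM. Among 23 nuclear receptors, NR1H2, the glucocorticoid receptor NR3C1, NR1H3, the dioxin-binding factor AHR and RARG were high, between 22.4 and 32.9 FPKM; AHR is not a nuclear receptor by structure and was kept with them as a ligand-activated factor. The progesterone receptor PGR was listed at 0.

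Interferons signal through cell-surface receptors that activate JAK kinases and STAT factors, which enter the nucleus and bind interferon-stimulated response elements before the genes they induce. All 10 interferon genes were absent by mean, against 35.4% of all protein-coding genes. Of the 10, 9 were listed at 0, including IFNB1, IFNA1, IFNG and IFNL1, and IFNE was at 0.0452, 0.0297 and 0.207 FPKM. Their receptors reached 1 FPKM in 5 of 6 cases (83.3%, against 55.5% of all protein-coding genes). IFNGR2 was at 27.97, 25.5 and 22.9 FPKM, IL10RB at 22.2, 20.8 and 20.2 FPKM and IFNGR1 at 13.3, 14.2 and 14.9 FPKM. Lower still, IFNAR2 was at 6.77, 8.48 and 9.04 FPKM and IFNAR1 at 5.21, 4.898 and 5.56 FPKM. IFNLR1, the specific chain of the lambda interferon receptor, was listed at 0.

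The signalling chain downstream was present at unequal levels. JAK1, which serves all interferon receptors, was at 99.5, 105 and 108 FPKM, 31.05 to 40.05 times JAK2 within a library. TYK2 was at 20.6, 26.3 and 24.7 FPKM. STAT2 and IRF9, parts of the complex that binds the response element, averaged 5.32 ± 0.308 FPKM and 2.32 ± 0.539 FPKM. Among the sensors of foreign nucleic acid, CGAS and its partner TMEM173, also known as STING, were at 17.4 ± 0.874 FPKM and 7.51 ± 0.933 FPKM. The RNA sensors IFIH1 and DDX58 were at 1.51 ± 0.233 FPKM and 0.615 ± 0.105 FPKM, and TLR3 was low at 0.261 FPKM. IRF7 was absent at 0.0658 FPKM, while IRF3 averaged 23.7 ± 1.72 FPKM. In all, 20 of 27 of these genes reached 1 FPKM (74.1%, against 55.5% of all protein-coding genes).

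Interferon-stimulated genes divided widely in level: of 38 members 5 were high, 16 intermediate, 7 low and 10 absent, a share at 1 FPKM or more (55.3%) close to that of all protein-coding genes (55.5%). BST2, the virus-tethering protein also named tetherin, was at 125, 129 and 156 FPKM. LGALS3BP, a secreted galectin-binding protein, was at 82.1, 96.7 and 101 FPKM, and IFITM3, which blocks viral fusion, at 46.1, 59.8 and 56.6 FPKM. IFI6, the target of the study's other hairpin, was at 24.9, 24.1 and 21.2 FPKM, and its transcript IFI6-202 was listed at 23.7, 19.4 and 20.1 FPKM. ISG15, the ubiquitin-like modifier, was at 16.7, 15.2 and 15.9 FPKM and its ligase HERC5 at 8.59, 9.35 and 9.16 FPKM. At the other end MX2, RSAD2, OAS2, XAF1 and CMPK2 were listed at 0, and MX1, TRIM22, EPSTI1, IFI44L and SAMD9L averaged between 0.00388 and 0.0788 FPKM. The members of one family did not keep together: IFIT1 and IFIT2 averaged 3.42 ± 0.1997 FPKM and 3.74 ± 0.135 FPKM, but IFIT3 0.382 FPKM. OAS3 averaged 7.11 ± 0.252 FPKM against 0 for OAS2.

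The letters of the response element were looked for in RefSeq promoter windows (GRCh38.p14, 250 bases before to 50 after a start). The motif searched was GAAANNGAAA on both strands, with overlapping matches counted. It was found in 23 of the 31 list members with a window (74.2%), and in 631 of 14889 protein-coding genes with one (4.24%). Windows were at hand for 81.6% of the list and 75.3% of protein-coding genes, so the second share describes only that subset. The 75.3% fell under the 80% coverage set for a comparison, so no conclusion is drawn from the difference between these shares. Of members at 1 FPKM or more with a window 16 of 18 (88.9%) held the motif, and of those under 1 FPKM 7 of 13 (53.8%). A comparison by level was void, since only 76.5% of the members under 1 FPKM had a window. Below are the 180 bases before the start of 3 expressed members and of EPSTI1, an absent one, with the matches in capitals. Every example shown holds the motif. Windows without it were found for IFI35 and IFI27L1, at 1 FPKM or more, and for SAMD9L, CMPK2 and XAF1, which were absent. IFI6 lies at chr1:27672193-27672372 on the minus strand, BST2 at chr19:17405631-17405810 on the minus strand, HERC5 at chr4:88456939-88457118 on the plus strand and EPSTI1 at chr13:42992242-42992421 on the minus strand. The RefSeq starts lay 0 to 30 bases from the deposited gene bounds.
IFI6: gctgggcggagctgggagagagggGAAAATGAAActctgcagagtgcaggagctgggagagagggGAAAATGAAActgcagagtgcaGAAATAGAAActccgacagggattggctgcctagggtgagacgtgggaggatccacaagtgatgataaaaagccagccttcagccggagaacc
BST2: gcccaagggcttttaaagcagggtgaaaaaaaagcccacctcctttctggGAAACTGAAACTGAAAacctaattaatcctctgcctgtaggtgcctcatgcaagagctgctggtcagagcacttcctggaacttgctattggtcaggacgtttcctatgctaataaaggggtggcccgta
HERC5: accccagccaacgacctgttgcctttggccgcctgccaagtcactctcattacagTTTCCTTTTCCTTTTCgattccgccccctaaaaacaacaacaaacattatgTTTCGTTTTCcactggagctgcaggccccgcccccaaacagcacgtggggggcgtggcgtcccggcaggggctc
EPSTI1: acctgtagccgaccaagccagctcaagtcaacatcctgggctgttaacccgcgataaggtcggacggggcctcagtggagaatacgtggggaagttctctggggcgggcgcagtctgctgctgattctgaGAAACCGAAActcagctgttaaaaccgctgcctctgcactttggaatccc
The IFI6 window held 3 matches, beginning 156, 115 and 93 bases before the start. BST2 held 2 that overlapped, beginning 130 and 124 bases before it, and HERC5 held 3, at 125, 119 and 74 bases. EPSTI1, at 0.0438, 0.00728 and 0.0667 FPKM, held 1 at 50 bases. A match describes the letters and does not show that a factor was bound.

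**Figure D4:**
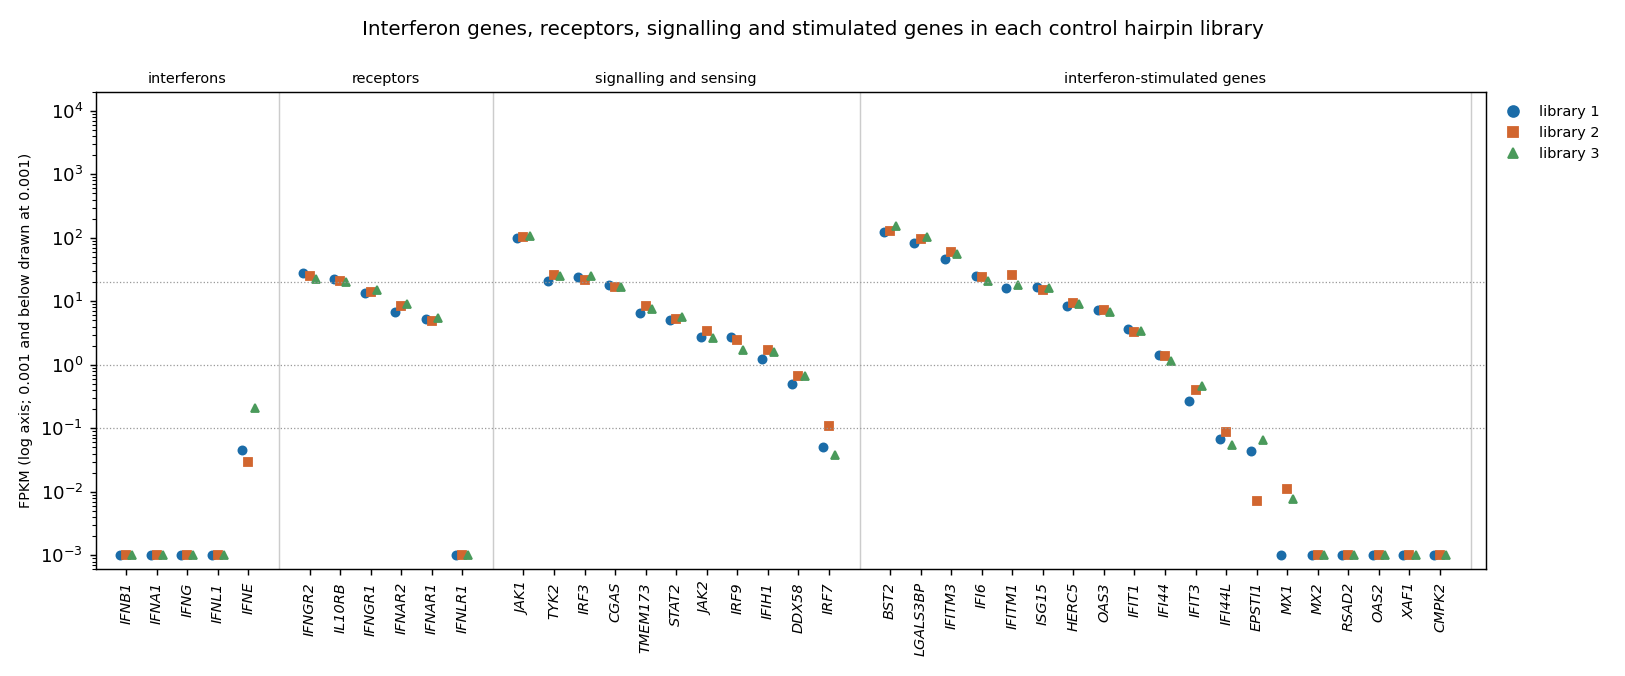
FPKM of interferon genes, their receptors, signalling and sensing genes and interferon-stimulated genes in each of the 3 control hairpin libraries on a log axis; dotted lines mark 0.1, 1 and 20 FPKM and values at or under 0.001 are drawn at 0.001. Interferon genes lie at the bottom, receptors other than IFNLR1 lie above 4 FPKM in every library, and the stimulated genes run from BST2 above 100 FPKM to 5 genes listed at 0.

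Of 30 antigen presentation genes 20 reached 1 FPKM (66.7%, against 55.5% of all protein-coding genes) and 10 were high (33.3%, against 15.3%). B2M, the light chain of class I, was at 984, 823 and 834 FPKM, and HLA-C and HLA-E averaged 85.1 ± 11.01 FPKM and 48.3 ± 0.359 FPKM. HLA-B was at 16.3, 19.4 and 13.01 FPKM. HLA genes are similar in sequence, and how their reads were divided is uncertain. TAP1, the peptide transporter, was at 24.7, 27.7 and 28.4 FPKM. The class II genes HLA-DRA, HLA-DRB1, HLA-DPA1 and HLA-DQA1 were listed at 0, although their regulator CIITA averaged 1.98 ± 0.393 FPKM. The checkpoint ligand CD274 was absent at 0.0261 FPKM.

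Glycolysis, which turns glucose into lactate, was expressed at high levels: 27 of 35 genes reached 1 FPKM (77.1%, against 55.5% of all protein-coding genes). Of the 35, 22 were high (62.9%, against 15.3%). Together the 35 held 4.27% to 4.40% of summed protein-coding FPKM. The lactate dehydrogenase subunits LDHB and LDHA overlapped in range, LDHB at 1090.3, 1096 and 1131 FPKM and LDHA at 1127, 943 and 1205 FPKM, and their order differed between libraries. TPI1, ENO1 and PGK1 averaged 1008 ± 43.1 FPKM, 958 ± 177 FPKM and 915 ± 70.6 FPKM. The glucose transporter SLC2A3 was at 546, 508 and 488 FPKM, 6.03 to 6.51 times the level of SLC2A1 (83.9, 84.2 and 78.9 FPKM). The hexokinase HK2 was at 26.9, 20.99 and 23.9 FPKM and HK1 at 2.398, 4.22 and 3.78 FPKM. Forms known from particular tissues went both ways: LDHC, HK3, SLC2A2 and PFKFB1 were absent, whereas the muscle enolase ENO3 and the brain aldolase ALDOC were high at 77.2 ± 6.78 FPKM and 86.5 ± 8.19 FPKM.

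The citric acid cycle, which oxidises acetyl groups in mitochondria, was expressed throughout the list. All 22 genes reached 1 FPKM (100%, against 55.5% of all protein-coding genes). Of the 22, 19 were high (86.4%, against 15.3%). The list was wider than the cycle: it also held cytosolic malate dehydrogenase MDH1 and the genes PC, PDHA1, PDHB and DLAT. MDH1 was at 506, 418 and 474 FPKM, fumarase FH at 162, 154 and 153 FPKM and citrate synthase CS at 33.2, 37.6 and 45.1 FPKM. All 22 genes of the list, MDH1 included, held 0.472% to 0.498% of summed protein-coding FPKM. In the pentose phosphate pathway and NADPH supply, 8 of 9 genes reached 1 FPKM (88.9%, against 55.5% of all protein-coding genes). TKT, TALDO1 and IDH1 averaged 179 ± 7.52 FPKM, 99.9 ± 6.21 FPKM and 93.6 ± 6.51 FPKM, and TKTL1 was listed at 0.

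The urea cycle was present in part. CPS1, the mitochondrial carbamoyl phosphate synthase known from liver, was at 641, 633 and 689.7 FPKM, and ASS1, argininosuccinate synthase, at 232, 232 and 214 FPKM. ASL was intermediate at 13.9, 15.3 and 14.5 FPKM. OTC, which joins the product of CPS1 to ornithine, and the liver arginase ARG1 were listed at 0, and ARG2 averaged 1.83 ± 0.299 FPKM. The gluconeogenic genes G6PC, PCK1 and FBP2 were absent, whereas mitochondrial PCK2 was at 39.5, 32.6 and 38.4 FPKM.

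In amino acid metabolism 16 of 20 genes reached 1 FPKM (80%, against 55.5% of all protein-coding genes) and 10 were high (50%, against 15.3%). SLC3A2, the heavy chain of a large neutral amino acid transporter, was at 796, 728 and 778 FPKM, and SLC7A5, the light chain, at 518, 570.1 and 523 FPKM. SLC7A11, the light chain that makes the cystine transporter with SLC3A2, averaged 0.499 FPKM. SHMT2, PHGDH and MTHFD2 of the serine and folate pathways averaged 197 ± 8.598 FPKM, 175 ± 8.94 FPKM and 50.6 ± 0.772 FPKM. GLS2, liver-type glutaminase, averaged 0.0272 FPKM.

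Of 19 lipid metabolism genes 14 reached 1 FPKM (73.7%, against 55.5% of all protein-coding genes). Of the 19, 10 were high (52.6%, against 15.3%) and 5 were absent (against 35.4%). The desaturase SCD was at 683, 659 and 669.7 FPKM, fatty acid synthase FASN at 192, 191 and 196 FPKM, and the sterol enzyme SQLE averaged 77.1 ± 2.35 FPKM. The fatty acid carrier CD36 and FABP1, FABP4 and FABP5 were absent. Among detoxification and NRF2 target genes 13 of 28 reached 1 FPKM (46.4%, against 55.5% of all protein-coding genes) and 13 were absent (against 35.4%). TXNRD1, thioredoxin reductase, was at 122, 126 and 217 FPKM, AKR1B1 at 138, 113 and 107 FPKM and NQO1 at 38.3, 48.4 and 38.3 FPKM. The glutathione transferase GSTP1, GPX2, ALDH1A1, AKR1C2 and the alcohol dehydrogenases ADH1B, ADH1C, ADH4 and ADH7 were listed at 0.

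**Figure D5:**
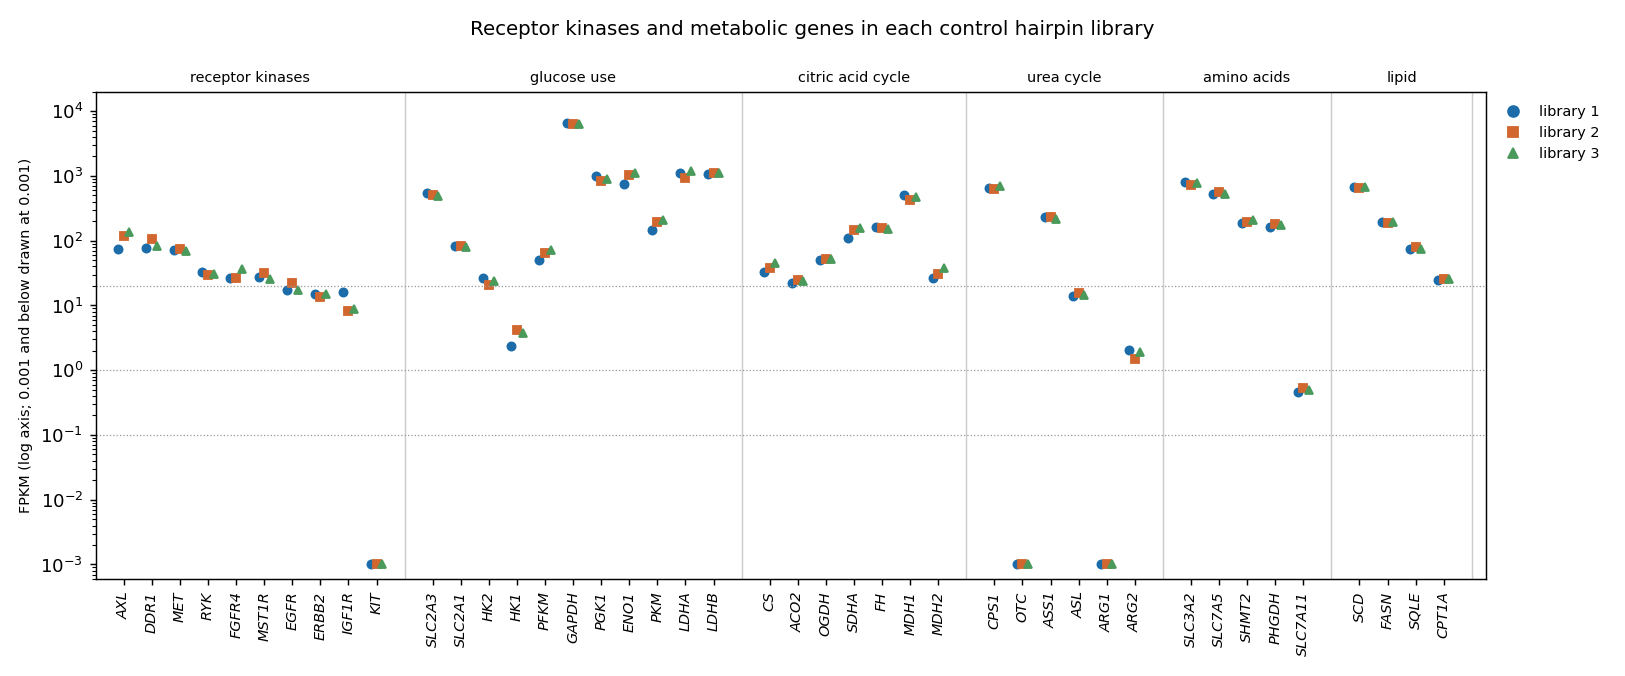
FPKM of receptor tyrosine kinases and of genes of glucose use, the citric acid cycle, the urea cycle, amino acid and lipid metabolism in each of the 3 control hairpin libraries on a log axis; dotted lines mark 0.1, 1 and 20 FPKM and values at or under 0.001 are drawn at 0.001. CPS1 and ASS1 lie above 200 FPKM while OTC and ARG1 are listed at 0, and SLC2A3 lies above SLC2A1 in every library.

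Variation between the libraries was small for most of the high genes, those of 20 FPKM or more. Among the 3021 high genes the coefficient of variation had a median of 8.16% (quartiles 4.72% and 13.8%), and 49 exceeded 50%. The high genes with the widest range were AC138811.2, TOMM6, NPY4R2, METTL7A, AC118553.2, RPL29, ZBED6 and AL135905.2. TOMM6, a subunit of the mitochondrial import pore, was at 1.76, 16.7 and 118 FPKM, METTL7A, a methyltransferase-like gene, at 43.2, 3.93 and 50.3 FPKM, and RPL29, a ribosomal protein, at 823, 82.1 and 90.4 FPKM. No library was the odd one in all of them: library 1 stood apart for RPL29, library 2 for METTL7A and AL135905.2, and library 3 for TOMM6, NPY4R2, AC118553.2 and ZBED6. Of the 127 high genes whose highest library was at least 2 times the lowest, 60 had a transcript whose share of the gene's value moved by over 50 percentage points between libraries, against 346 of all 3021 high genes. For 8 high genes, NEMF and PTPRD among them, over 90% of the value came from assembled transcripts.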

How the data were processed

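FPKM values per gene and per transcript were made by the authors and deposited as tables. HISAT2, StringTie, Cuffdiff and edgeR are named in the submitters' processing notes without versions or roles, and the genome build they used is not given there. Deposited gene bounds overlapped those of GENCODE 29 (GRCh38) on the same chromosome for 19681 of 19702 shared coding identifiers. The labels' protocols state lncRNA libraries from total RNA; whether strand was kept is not given, so overlapping genes cannot be told apart. A gene's FPKM was the sum of its transcripts, assembled ones included.

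Means, SDs and classes over the 3 libraries were computed with Python 3.11.15 and pandas 2.3.3. With 1 group there was no test, and 9 columns of other groups were not used. Members of 38 gene lists were matched by symbol; BAGE, LTBR, OAS1, PGLS and CCAT1 were not matched and are not analysed here. The members and lists were chosen with earlier results of these data known, and 7 gene families were added later. Named genes were the 7 markers, up to 6 of the highest of each list with its absent members and those a sentence turns on, the 20 highest coding and 10 highest long non-coding genes, and the 8 high genes of widest range. Steps between low values gave no whole reads: among genes with 1 transcript, 27.4% to 29.2% of the low values were within 1% of a multiple of the step. Some genes that the rule would name are not reported here. Scripts were tested on simulated data.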

Additional observations from a re-analysis of the deposited data

How the results depend on the processing

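No paired analysis was possible because 1 group was described and no groups were compared. Of 135 values recomputed under other settings, 124 stayed within 1.5 times (counts) or within the spread between libraries (levels). Many of these could not move, so the count does not measure robustness. Coding genes had the same values among all annotated genes. A changed bound also leaves the counts of classes that it does not border as they were. With high set at 10 or 50 FPKM, 5418 or 1122 protein-coding genes were high in place of 3021, and at 50 FPKM 182 of the 952 list genes were. With absent set at under 0.5 FPKM, 652 genes were low. Taken over all annotated genes, which include small RNAs, the highest 10, 100 and 1000 genes held 29.4%, 45.8% and 70.6% of summed FPKM. The ribosomal protein list held 8.79% of it, the glycolysis list 2.87% and the citric acid cycle list 0.320%. The lowest correlation on the log2(FPKM + 0.1) scale was 0.992. None of the class counts over all genes moved by over 1.5 times on leaving out each library in turn, or with median levels or scaled libraries. Leaving out assembled transcripts (chosen after seeing the data) did not move them so far either. The 7 marker levels stayed within 1 SD of the 3 libraries in these settings. For left-out libraries and medians that was fixed in advance, since the SD came from the same 3 values. It therefore shows nothing about how stable the marker levels are. Without library 1 the mean of MYC was 38.4 FPKM in place of 64.7 FPKM. Of 82 counts of absent or high members per list, 21 moved by over 1.5 times with high set at 50 FPKM and 10 with high set at 10 FPKM. A comparison of promoter CpG content between classes was void, since 75.3% of protein-coding genes had a promoter window, under the 80% set for a comparison. No group had enough libraries for a single value to be tested as an outlier. With no read counts, no counting error could be attached to low values.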

Other observations

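HOX genes, whose products mark position along the body axis, were listed here as a family chosen after their values were seen. Of 39 members 19 reached 1 FPKM (48.7%, against 55.5% of all protein-coding genes) and 1 was high, HOXC10 at 20.6, 26.2 and 13.2 FPKM. HOXC13 and HOXB13, members of the most posterior paralogue group, were at 11.2, 13.04 and 11.8 FPKM and 8.07, 10.5 and 9.83 FPKM, and HOXA13 was at 3.08, 2.74 and 2.61 FPKM. HOXD12 and HOXD13 were listed at 0. Each of the 4 clusters had members at 1 FPKM or more, 5 of 11 in HOXA, 4 of 10 in HOXB, 6 of 9 in HOXC and 4 of 9 in HOXD.

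Long non-coding genes were lower: 1597 of 14876 (10.7%) reached 1 FPKM and 50 were high. The 10 highest by mean were AC006064.5, SNHG29, AL627171.2, AL592166.1, AC006064.4, PXN-AS1, GAS5, BX470102.1, AC093512.1 and AC126696.2. AC006064.5, a sense-intronic gene, was at 571, 803 and 718 FPKM, and SNHG29, a snoRNA host gene, at 613, 679 and 590.1 FPKM. AL627171.2 was at 176, 561 and 234 FPKM, with library 2 apart. Of 25 named RNAs, GAS5, SNHG1, MALAT1 and CYTOR were high, with MALAT1 at 70.1, 44.9 and 64.6 FPKM. NEAT1, the scaffold of paraspeckles, was at 0.323, 8.31 and 0.602 FPKM, so 1 library gave nearly all of its mean. The squamous transcript MIR205HG was listed at 0, as was MEG3, and H19 and UCA1 were absent at 0.00872 and 0.03603 FPKM. The small RNAs RMRP, RN7SK, RPPH1 and both 7SL genes RN7SL1 and RN7SL2, chosen after their values were seen, held 23.1% to 26.5% of summed FPKM over all annotated genes.

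Neighbouring genes at loci often altered in oesophageal cancer had unequal levels. At 3q26, beside SOX2 at 0, ECT2, ACTL6A, FXR1 and PRKCI averaged 32.1 ± 0.787, 31.6 ± 0.862, 28.9 ± 1.67 and 20.9 ± 0.776 FPKM. At 11q13 FADD, CTTN and CCND1 averaged 18.7 ± 0.519, 17.9 ± 8.31 and 13.2 ± 2.59 FPKM, while ANO1, SHANK2, FGF3, FGF4 and FGF19 were listed at 0. At 9p21 CDKN2A, FOCAD and MTAP were at 96.6 ± 4.57, 42.5 ± 1.704 and 17.8 ± 1.61 FPKM, and HACD4 and the interferon genes there were listed at 0 except IFNE. Mitochondrially encoded genes differed widely: MT-CO1 was at 1058, 1198 and 898 FPKM and MT-CO2 at 9.23, 8.74 and 8.44 FPKM, a ratio of 106 to 137 within a library. Nothing is known here of copy number or of how these RNAs were counted.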
